A study of Mus musculus with 14 samples.

Results

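The T-box genes encode transcription factors that share a DNA-binding domain, the T-box, and set up heart, limb, mesoderm and immune cell fates. Trimethylation of histone H3 at lysine 27 (H3K27me3) was examined here at 10 of them, Tbx1, Tbx2, Tbx3, Tbx4, Tbx5, Tbx15, Tbx18, Tbx20, Tbx21 and Eomes, in mouse embryonic stem cells (mESCs). A peak was assigned to a gene when it lay within 10 kb of the RefSeq gene body. By this rule 112 of the 74458 peaks in the table belonged to the 10 genes, and all 112 passed the filter on low counts. No peak was shared among these 10 genes, and 1 peak, at Tbx2, also overlapped the body of another protein-coding gene. The number of peaks ranged from 5 at Tbx20 and at Tbx21 to 24 at Tbx5, and the lowest count of any of these peaks in any library was 8.

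H3K27me3 is deposited by Polycomb repressive complex 2 and marks genes that are kept silent, among them most regulators of later development in mESCs. CpG-rich stretches at gene starts are known as places where the complex is recruited, and the mark can spread from there along the chromosome. Several T-box genes lie in neighbouring pairs that arose by duplication, with Tbx2 next to Tbx4 and Tbx3 next to Tbx5, and both pairs act in the limb and the heart.

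The 7 libraries were H3K27me3 Cut&Tag libraries, in which an antibody tethers a transposase next to the mark, so that the mark is read as tagged fragments. The cells were G4 mESCs of a 129/Sv × C57BL/6 hybrid background, kept with LIF on CD1 feeder cells. Each line carried a homozygous deletion of a Polycomb loop anchor made with CRISPR-Cas9. The anchor lay at the Hoxa cluster (Hoxa deletion, 3 libraries), at Wnt6 (Wnt6 deletion, 2 libraries) or at Hmx1 (Hmx1 deletion, 2 libraries), and in the Hoxa deletion the genes from Hoxa2 to Hoxa13 were removed. The table has no column for unedited cells, so that the reference for a deletion is the pool of the libraries of the other deletions, and the 3 comparisons share their libraries. None of the 10 genes lies on the chromosome of the Hoxa cluster or that of Wnt6. Tbx3 and Tbx5 lie on chromosome 5, which also holds Hmx1, and Tbx3 is 84.3 Mb from Hmx1.

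Library totals ran from 6016500 to 36563541 counts. Values are CPM, that is counts scaled to a common library total, after scaling by TMM factors, which lay between 0.973 and 1.05. To compare genes, the summed CPM of a gene was divided by the length of its peaks, which gives CPM per kb of peak. As a check of the cell type, the pluripotency genes, which are active in mESCs, had a summed level of 12.8 to 15.3 CPM per kb over the 8 of 10 with a peak, against 41.5 to 47.9 CPM per kb for the 10 T-box genes. This sum was above the median of all genes tested (9.36 CPM per kb). Its largest part was Esrrb, with a mean of 248 CPM. Sox2, Esrrb and Klf4 lay above that median (18.5, 17.7 and 10.2 CPM per kb), and Pou5f1, Nanog, Zfp42, Klf2 and Tfcp2l1 below it (5.73 to 7.14). Of 10 marker genes of fibroblasts, a common type of feeder cell, 8 had a peak, and their summed level overlapped between deletions, at 1386 to 1485 CPM in the Hoxa deletion, 1341 to 1484 CPM in the Wnt6 deletion and 1461 to 1515 CPM in the Hmx1 deletion. Twist1, Twist2, Prrx1 and Pdgfra carried much of the mark (48.9 to 55.8 CPM per kb), and Col1a1, Col1a2, Thy1 and Dcn less (7.90 to 29.4). This sum therefore does not measure the share of feeder cells, which was not tested. In bulk libraries a change in the share of cells that carry the mark and a change in its level per cell cannot be told apart.

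Promoter sequences for 6 of the 10 genes were found in a RefSeq table (GRCm38.p6), with 7 entries of 300 bases, 250 before and 50 after the gene start. Entries for Tbx2, Tbx3, Tbx5 and Tbx15 were not in the table. Of these entries, 6 overlapped a peak and that of Eomes fell 2 bp beyond the end of a peak. The numbers of CpG dinucleotides per entry were 26 and 16 for the starts of Tbx1, 26 for Tbx20, 21 for Tbx21, 15 for Tbx18, 10 for Eomes and 8 for Tbx4, against a median of 7 over all 32851 promoters. The 250 bases upstream of the start are printed below in lower case with CpG in capitals, 5′ to 3′ on the strand of the gene. They are shown for Tbx20, which had the strongest peak of the 10 genes at its start, for Tbx4, whose entry had the fewest CpG, and for Eomes, whose window lay between peaks. They span chr9:24774304-24774553 (minus strand), chr11:85896515-85896764 (plus strand) and chr9:118477939-118478188 (plus strand), in this order. The Tbx4 entry lies inside the gene body, whose lower end is at chr11:85886367, so it is an internal start. No entry covers the lower end of Tbx4.
Tbx20: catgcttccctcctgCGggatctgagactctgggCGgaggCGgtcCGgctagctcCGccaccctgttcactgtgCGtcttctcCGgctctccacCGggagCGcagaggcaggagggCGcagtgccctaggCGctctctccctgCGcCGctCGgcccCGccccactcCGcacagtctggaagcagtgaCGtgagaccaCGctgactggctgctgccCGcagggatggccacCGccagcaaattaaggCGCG
Tbx4: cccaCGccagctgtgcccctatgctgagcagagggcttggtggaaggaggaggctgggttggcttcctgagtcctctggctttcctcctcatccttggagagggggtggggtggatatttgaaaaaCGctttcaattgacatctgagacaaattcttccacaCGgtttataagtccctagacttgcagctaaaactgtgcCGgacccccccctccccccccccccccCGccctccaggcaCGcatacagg
Eomes: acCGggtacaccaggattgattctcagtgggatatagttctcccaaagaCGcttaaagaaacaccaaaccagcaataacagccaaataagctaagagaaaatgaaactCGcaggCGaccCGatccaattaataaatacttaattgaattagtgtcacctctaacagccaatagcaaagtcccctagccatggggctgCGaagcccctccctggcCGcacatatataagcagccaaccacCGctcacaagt
The T-box half-site AGGTGTGA, or TCACACCT on the other strand, was in 0 of the 7 entries and in 1.28% of all promoters. This says only that these letters are not in these windows.

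The 10 genes carried much H3K27me3. The median level of their peaks was 30.7 CPM per kb (5.13 to 129), whereas the median over all tested peaks was 7.74 CPM per kb, and 104 of the 112 peaks lay above that value. Their peaks had a median width of 571 bp (239 to 3431 bp), against 476 bp in the whole table, and 69 of the 112 lay in the bodies of the genes. Between 6.57% (Tbx20) and 38.9% (Tbx2) of the gene body with its flanks was under peaks, where the median gene had 4.01%. At the level of genes the median of all 30959 genes tested was 9.36 CPM per kb, and each of the 10 was above it in every library.

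Tbx20, a regulator of heart muscle and valve development, had the highest level, at 76.6 ± 5.55 CPM per kb (SD, n = 7 libraries). Its level was in the percentile 99.4 of all genes and came from only 5 peaks. The strongest of them, at chr9:24773731-24774849 over its start, had 129 CPM per kb, the highest of all 112 peaks. Tbx2, which represses chamber genes in the heart, and Tbx1, which acts in the pharyngeal arches and outflow tract, followed with 64.1 ± 3.11 and 63.6 ± 3.12 CPM per kb. These 2 genes could not be ordered, since Tbx2 was higher than Tbx1 in 5 of 7 libraries. The strongest peak of Tbx2 (chr11:85841946-85842427, 124 CPM per kb) sat on the upper end of the gene, and a peak of 69.3 CPM per kb covered its lower end. At Tbx1 a wide peak covered both annotated starts with 77.1 CPM per kb (chr16:18587897-18590808), and the strongest peak lay just beyond the gene with 85.3 CPM per kb.

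Tbx18, a gene of the sinus horns and epicardium, had 54.2 ± 3.03 CPM per kb, with 78.1 CPM per kb in the peak over its start (chr9:87729230-87731524) and 85.9 CPM per kb in a peak beyond it. Tbx4, needed for the hindlimb and allantois, had 46.1 ± 2.36 CPM per kb, with 80.5 CPM per kb in its strongest peak at the lower end of the gene and 42.7 CPM per kb in the peak over the internal start of its promoter entry. The 2 genes kept this order in 7 of 7 libraries without overlap. Eomes (40.1 ± 2.90), which directs mesendoderm and T cell effector genes, Tbx21 (38.0 ± 1.17), which encodes T-bet of T helper cells, and Tbx15 (37.7 ± 3.01), which acts in the skeleton and skin, had CPM per kb values that overlapped. Eomes was higher than Tbx21 in 5 of 7 libraries and Tbx21 higher than Tbx15 in 4 of 7. The strongest peak of Eomes had 86.4 CPM per kb and lay just inside the gene (chr9:118478293-118479857), that of Tbx21 had 54.2 CPM per kb and covered its start (chr11:97114000-97116127), and that of Tbx15 had 68.9 CPM per kb (chr3:99253605-99254334, in the gene). All 14 peaks of Tbx15 lay towards its lower end, where a peak of 39.3 CPM per kb covered the end itself.

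The lowest levels were at Tbx5 and Tbx3. Tbx5, a regulator of the heart and forelimb, had 30.0 ± 1.35 CPM per kb, below Tbx15 in 7 of 7 libraries without overlap, and its strongest peak (chr5:119835006-119835685, 81.7 CPM per kb) lay 38.8 kb into the gene. The peak next to its lower end had 47.1 CPM per kb and that nearest its upper end 5.16 CPM per kb. Tbx3, which acts in the limb, mammary gland and conduction system and is also expressed in mESCs, had 22.3 ± 6.12 CPM per kb and was below Tbx5 in 7 of 7 libraries. Its coefficient of variation over the 7 libraries was 27.5%, where those of the other 9 genes ran from 3.09% to 7.99%. Its strongest peak (57.9 CPM per kb, chr5:119670286-119671046) covered its lower end. The order of the 10 genes depends on the window in part: within gene bodies alone 4 of the 10 kept their rank and Eomes was second, whereas Tbx20 stayed first and Tbx3 last in all 3 windows.

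**Figure D1:**
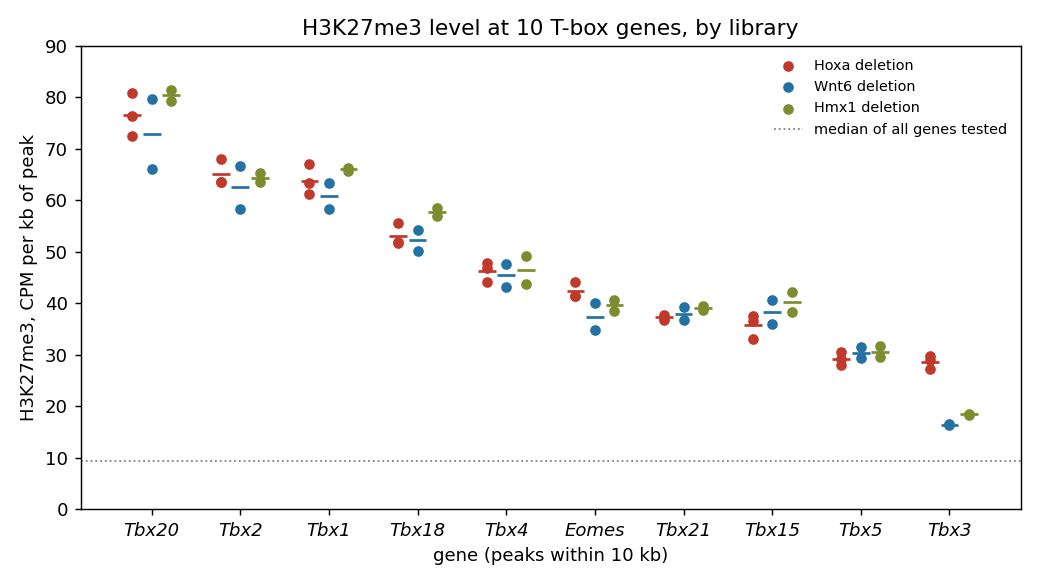
H3K27me3 level of the 10 genes in CPM per kb of peak (y axis), with a point for each of the 7 libraries and a short line for the mean of each deletion. The dotted line is the median of all genes tested (9.36 CPM per kb). Tbx3 is the only one of the 10 whose Hoxa deletion libraries (27.2 to 29.8) stand well clear of the other 4 libraries (16.3 to 18.5).

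Tbx3 was the gene of the 10 that differed between the deletions. Its summed level was 262.1, 256.1 and 239.9 CPM in the 3 libraries of the Hoxa deletion, 146.1 and 143.7 CPM in those of the Wnt6 deletion, and 161.1 and 163.2 CPM in those of the Hmx1 deletion. All Hoxa deletion libraries were higher than all others, and the Wnt6 deletion libraries were the lowest. The gene was 1.65-fold higher in the Hoxa deletion than in the others pooled (log2 fold change 0.72, SE 0.0669, 95% interval 0.58 to 0.85, adjusted p = 6.47e-11 by edgeR's quasi-likelihood test with Benjamini-Hochberg adjustment over 30959 genes), which is below the fold of 2 required for a call. Thus 0 of the 10 genes were called, where 0.775% of all genes were, and 0 by DESeq2. By adjusted p it was rank 91 of all genes. Against the Wnt6 deletion alone the log2 difference was 0.80 (95% interval 0.66 to 0.94) and against the Hmx1 deletion alone 0.64 (0.49 to 0.78), with adjusted p of 7.54e-14 and 1.64e-10 by edgeR. Between the Wnt6 and Hmx1 deletions the log2 difference was -0.16 (95% interval -0.32 to -0.01) and did not pass after adjustment (edgeR, adjusted p = 0.468).

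The other 9 genes gave log2 fold changes from -0.14 to 0.14 in the Hoxa deletion. With no fold minimum 1 of 10 genes rose and 0 fell at an adjusted p under 0.05, and DESeq2 also gave 1. Over all genes tested 12.2% rose and 6.13% fell, or 18.3% in all, so the count over the 10 genes is not above the background. At an unadjusted p under 0.05 there were 2 of 10, where 29% of all genes had one. The median log2 fold change of the 10 genes was 0.00, against 0.05 over all genes tested. The smallest adjusted p after Tbx3 was that of Tbx15 (log2 fold change -0.14, SE 0.0668, 95% interval -0.27 to -0.00, adjusted p = 0.170 by edgeR). Eomes had 323.7, 304.1 and 303.5 CPM in the Hoxa deletion, 293.7 and 255.3 CPM in the Wnt6 deletion, and 282.5 and 298.4 CPM in the Hmx1 deletion. The Hoxa deletion libraries were all above the others, as they were in 2 of the 10 genes and in 16.5% of all genes, but the change on the log2 scale was only 0.14 (SE 0.0678, adjusted p = 0.175 by edgeR).

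Tbx5, the neighbour of Tbx3, did not share its pattern. Its level was 512.3, 488.6 and 469.3 CPM in the Hoxa deletion, 529.3 and 491.6 CPM in the Wnt6 deletion, and 495.0 and 530.8 CPM in the Hmx1 deletion. The groups overlapped, and the log2 fold change in the Hoxa deletion was -0.06 (95% interval -0.19 to 0.06). Within a library the level of Tbx3 was therefore 51.2%, 52.4% and 51.1% of that of Tbx5 in the Hoxa deletion, but 27.6% and 29.2% in the Wnt6 deletion and 32.5% and 30.8% in the Hmx1 deletion. This ratio does not depend on library scaling, and it differed by 0.78 on the log2 scale. Tbx3 against the sum of the other 9 genes was at 6.24% to 6.57% in the Hoxa deletion and 3.57% to 4.03% in the others (difference 0.73 on the log2 scale). Both ratios restate the separation already seen at Tbx3 and are given as a description, with no test. The p-values of the fits measure only the spread between these libraries, as the labels do not say whether replicates came from separate cultures and name no clones. The study speaks of replicates of a clone for each deletion, and of more of them than the table holds for the Wnt6 and Hmx1 deletions. A difference between deletions and one between clones cannot be told apart.

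**Figure D2:**
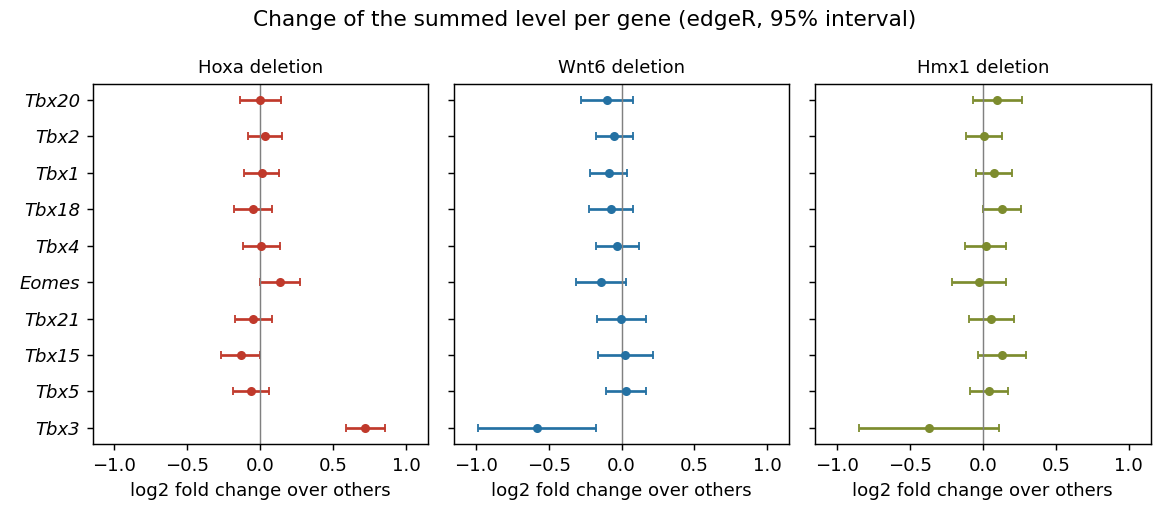
Log2 fold change of the summed level of each gene (x axis) in each deletion over the other deletions pooled, with 95% intervals from edgeR's quasi-likelihood fit. In the Hoxa deletion Tbx3 (0.72) stands apart from the other 9 genes (-0.14 to 0.14).

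In the Wnt6 deletion 0 of the 10 genes passed the adjusted p of 0.05 by edgeR, where 0.0452% of all genes passed, and 0 by DESeq2. At an unadjusted p under 0.05 there was 1 of 10, where 5.77% of all genes had one. The gene with that unadjusted p was Tbx3 (log2 fold change -0.58, SE 0.186, adjusted p = 0.837 by edgeR), which had the largest change and the smallest adjusted p. The other 9 genes lay between -0.14 and 0.03. In the Hmx1 deletion 0 of 10 genes passed by edgeR, where 0.0517% of all genes passed, and 0 by DESeq2. At an unadjusted p under 0.05 there was 1 of 10, where 13.3% of all genes had one. The largest change was again at Tbx3 (log2 fold change -0.37, SE 0.221, adjusted p = 0.490 by edgeR), and the smallest adjusted p was that of Tbx18 (log2 fold change 0.13, adjusted p = 0.370 by edgeR). Both comparisons hold the Hoxa deletion libraries among the controls, so their Tbx3 values are not independent of the Hoxa deletion result, and the pooled reference mixes high and low libraries. When each genotype had a term of its own, Tbx3 passed as lower in the Wnt6 deletion (log2 fold change -0.48, adjusted p = 3.00e-07 by edgeR) and in the Hmx1 deletion (-0.24, adjusted p = 0.0131), against the average of the other deletions. These averages also include the high Hoxa deletion, so the values restate its result and are no separate loss. Tbx3 was not lower in the Hmx1 than in the Wnt6 deletion (log2 of Wnt6 over Hmx1 -0.16, adjusted p = 0.468 by edgeR). The medians of the 10 genes were -0.06 and 0.05, against -0.03 and -0.03 over all genes.

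Peaks were also tested singly. In the Hoxa deletion 1 of the 112 peaks was called at a fold over 2 and an adjusted p under 0.05 by edgeR, where 1.55% of all tested peaks were called, and DESeq2 also called 1. It was the peak at chr5:119682559-119683431 in Tbx3, with 21.3, 22.5 and 19.3 CPM in the Hoxa deletion, 6.89 and 7.97 CPM in the Wnt6 deletion, and 10.5 and 10.4 CPM in the Hmx1 deletion. All Hoxa deletion libraries were clear of the others, with a log2 fold change of 1.25 (SE 0.138, adjusted p = 3.35e-09 by edgeR). Without a fold minimum 21 of 112 peaks (18.8%) passed, 15 higher and 6 lower, against 8.52% of all peaks, 4.32% higher and 4.20% lower, and 12 of the 15 were at Tbx3. DESeq2 gave 16 in all. At an unadjusted p under 0.05 there were 34 of 112, against 20.8% of all tested peaks.

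Of the 13 peaks of Tbx3, 12 rose in the Hoxa deletion, with log2 fold changes from 0.56 to 1.25, and the remaining one had 0.46 (adjusted p = 0.0553 by edgeR). In each of these 12 peaks every Hoxa deletion library was above every other library. This was so for 15 of the 112 peaks, and for 9.09% of all tested peaks. The strongest peak, at the lower end of the gene, had 56.7, 47.6 and 57.2 CPM in the Hoxa deletion, 36.6 and 31.9 CPM in the Wnt6 deletion, and 42.4 and 35.5 CPM in the Hmx1 deletion. Here the groups did not overlap, and the log2 fold change was 0.57 (SE 0.104). Weaker peaks farther up in the gene had values between 0.78 (SE 0.17) and 1.25 (SE 0.14). Beyond the upper end the values were 0.91 (SE 0.16, chr5:119685544-119685965), 0.82 (SE 0.11) and 0.59 (SE 0.19). Weaker peaks below the lower end had 0.46 to 0.67. Differences between these peaks were not tested. These peaks are parts of 1 locus and are not separate samples of it.

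Peaks that passed as higher also lay beyond Tbx3 on the side away from Tbx5. From 150 kb below Tbx3 to 150 kb above Tbx5 the table held 59 peaks, of which 18 rose and 1 fell in the Hoxa deletion by edgeR. Of these 18, 12 are the Tbx3 peaks given above. Over all tested peaks 4.32% rose and 4.20% fell. Below the window of Tbx3, 6 of 10 peaks rose, with a median log2 fold change of 0.62 over the 10, the farthest with its centre 107 kb below the lower end of the gene (log2 fold change 0.59). In the 112 kb between the 2 gene bodies, 0 of the 8 peaks outside both windows passed, with a median of 0.13. Those nearest Tbx3, at 36.6 and 37.8 kb, were weak and had 0.50 each (SE 0.22 and 0.28, adjusted p of 0.162 and 0.318 by edgeR). Whether the higher level ends on this side is thus not settled. At Tbx5, 0 of 24 peaks rose and 1 fell, with a median of -0.16, and 0 of 4 peaks beyond Tbx5 passed. Over all 4635 peaks of chromosome 5 the median log2 fold change was 0.01.

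**Figure D3:**
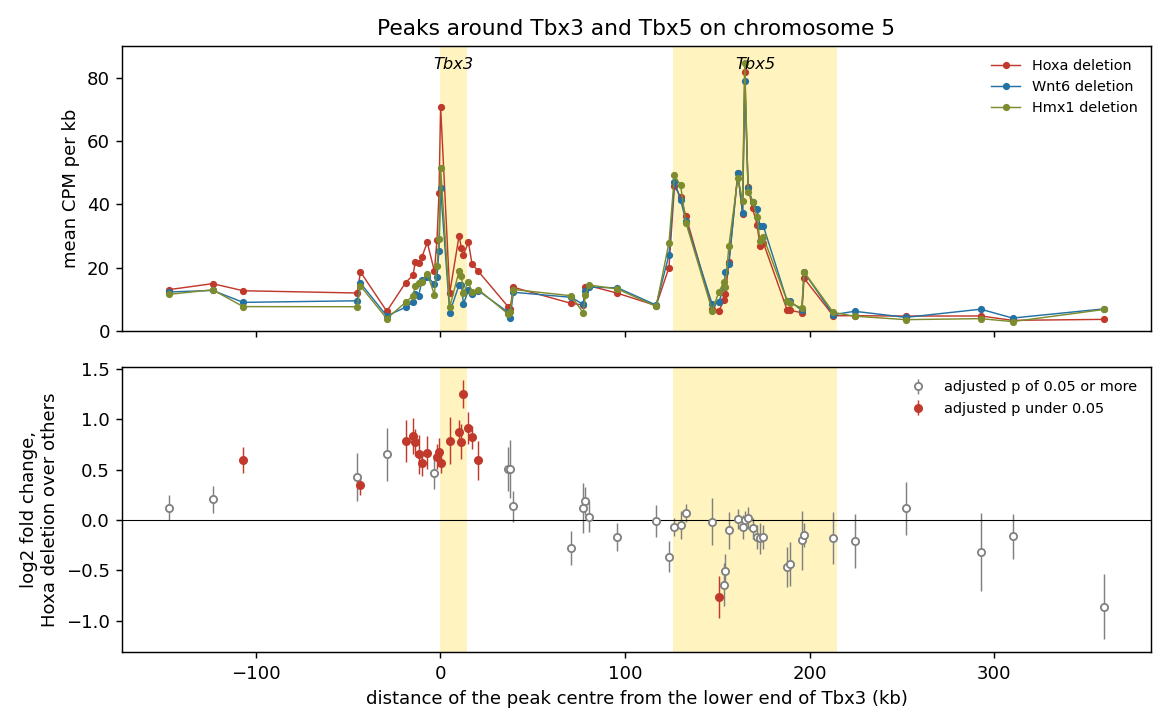
Peaks from 150 kb below Tbx3 to 150 kb above Tbx5 against the distance of their centre from the lower end of Tbx3 in kb, with the gene bodies shaded. The upper panel gives the mean CPM per kb of each deletion, and the lower panel gives the log2 fold change of the Hoxa deletion over the others with its SE, filled where the adjusted p was under 0.05. Filled points above 0 run from -107 kb to 20.6 kb and end before Tbx5.

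Outside Tbx3, 3 of 99 peaks (3.03%) rose and 6 (6.06%) fell in the Hoxa deletion, against 4.32% and 4.20% of all tested peaks. The 4.20% includes chromosome 8, which holds none of the 10 genes and whose 5579 peaks had a median log2 fold change of -0.59. The share without chromosome 8 was not computed. The peaks that follow are given as values and not as results about their genes. The 3 that rose were neighbours beyond the upper end of Eomes, away from its annotated start. Their log2 fold changes were 0.35, 0.50 and 0.64 (adjusted p of 0.0266, 0.0112 and 0.00317 by edgeR). The farthest of them, at chr9:118489539-118489861, had 12.2, 9.78 and 9.86 CPM in the Hoxa deletion, 6.69 and 6.85 CPM in the Wnt6 deletion, and 6.09 and 6.89 CPM in the Hmx1 deletion. The groups did not overlap there, whereas the strong peak at the start of Eomes had a log2 fold change of only 0.08.

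Of the 6 peaks that fell, 4 were in Tbx15, 1 in Tbx5 and 1 in Tbx18. The 4 at Tbx15 were among the last 5 of its peaks, 21.5 to 42.2 kb above the lower end of the gene, with log2 fold changes from -0.91 to -0.37. The peak in Tbx5 (chr5:119821061-119821571) had 3.53, 3.63 and 2.45 CPM in the Hoxa deletion, 4.63 and 4.55 CPM in the Wnt6 deletion, and 5.58 and 6.93 CPM in the Hmx1 deletion, and fell with a log2 fold change of -0.76 (SE 0.209, adjusted p = 0.0130 by edgeR). The groups did not overlap, and the Hmx1 deletion was the highest. The peak in Tbx18 (chr9:87705461-87706012) had at most 2.19 CPM in the 3 libraries of the Hoxa deletion, 3.81 and 3.14 CPM in the Wnt6 deletion, and 3.89 and 3.94 CPM in the Hmx1 deletion, again without overlap (log2 fold change -0.81, adjusted p = 0.0241 by edgeR).

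Most of these falling peaks were weak. Among the 13 peaks under 10 CPM per kb outside Tbx3, all 13 had a log2 fold change below 0 in the Hoxa deletion, with a median of -0.44, and 4 of them passed the test as lower. All 13 belonged to Tbx5, Tbx15 or Tbx18. They are parts of these few loci and are not separate samples of weak peaks. Over all 47032 peaks under 10 CPM per kb the median was -0.01, and 3.01% passed as lower. The 86 stronger peaks outside Tbx3 had a median of -0.03, with 3 higher and 2 lower. The weak peak of Tbx3 went the other way, with a log2 fold change of 0.79. In the Wnt6 and Hmx1 deletions the 13 weak peaks had medians of 0.21 and 0.29, from comparisons that share their libraries with this one. The limit of 10 CPM per kb was chosen after the values were seen, so these counts are a description.

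**Figure D4:**
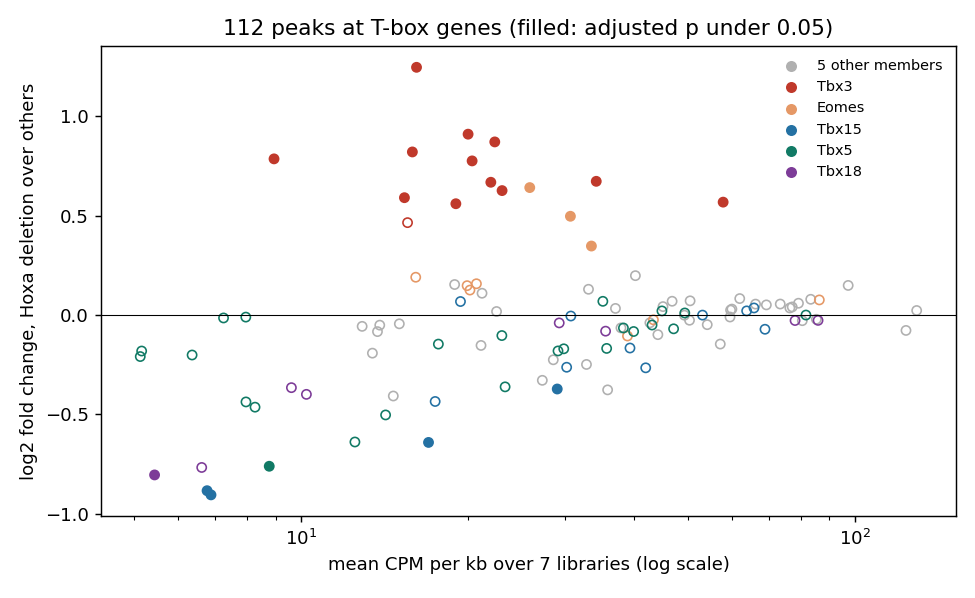
Log2 fold change of the Hoxa deletion over the others (y axis) against the mean level in CPM per kb over 7 libraries (x axis, log scale) for the 112 peaks, filled where the adjusted p was under 0.05. Tbx3 peaks lie above 0 at every level, and the filled points below 0 belong to Tbx15, Tbx5 and Tbx18.

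In the Wnt6 deletion 0 of the 112 peaks were called by edgeR, where 0.0497% of all tested peaks were, and 0 passed without a fold minimum, where 0.0564% did. At an unadjusted p under 0.05 there were 12, where 5.2% of all tested peaks had one, and DESeq2 called 1 and passed 2. The smallest adjusted p by edgeR was at the Tbx3 peak called in the Hoxa deletion (log2 fold change -1.17, adjusted p = 0.459), which is also the peak that DESeq2 called. In the Hmx1 deletion 0 peaks were called by edgeR, where 0.0282% of all tested peaks were, and 0 passed without a fold minimum, where 0.0309% did. At an unadjusted p under 0.05 there were 7, where 8.96% of all tested peaks had one, and DESeq2 passed 0. The smallest adjusted p was at the weak Tbx5 peak given above (log2 fold change 0.76, adjusted p = 0.371 by edgeR).

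The other T-box family genes fell into a high and a low group by level. Tbr1, a gene of cortical neurons, and T, the brachyury gene of early mesoderm, had 87.3 and 50.1 CPM per kb. Tbx6, Tbx10, Tbx19 and Mga had 5.08 to 7.60 CPM per kb, below the median gene, and Tbx22 had 14.8 CPM per kb. Mga, which encodes a partner of Max that acts in mESCs, rose in the Hoxa deletion (log2 fold change 0.34, adjusted p = 0.0422 by edgeR), 1 of 7 where 18.3% of all genes passed. Its Hoxa deletion libraries (16.5, 18.6 and 20.8 CPM) overlapped those of the Hmx1 deletion (17.2 and 14.2 CPM) and were above those of the Wnt6 deletion (14.6 and 14.2 CPM). In the Wnt6 and Hmx1 deletions 0 of 7 passed by edgeR, where 0.0452% and 0.0517% of all genes passed, and 0 by DESeq2. At an unadjusted p under 0.05 there were 0 and 1, where 5.77% and 13.3% of all genes had one.

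Of 15 listed genes that work with T-box factors in heart, limb and mesoderm, 14 had a peak, and Nppa had none. In the Hoxa deletion 0 of 14 rose and 1 fell, where 12.2% of all genes rose and 6.13% fell, with a median log2 fold change of -0.00. The gene that fell was Hand2, a regulator of heart and limb (log2 fold change -0.55, SE 0.0666, adjusted p = 2.92e-08 by edgeR), on chromosome 8, whose 5579 peaks had a median log2 fold change of -0.59. Of their 96 single peaks 0 rose and 14 fell (14.6%, against 4.20% of all tested peaks), all 12 of Hand2 and 2 of 16 at Gata4, a gene of heart and endoderm. Without Hand2, 2 of 84 fell (2.38%). In the Wnt6 and Hmx1 deletions 0 of 14 passed by edgeR, where 0.0452% and 0.0517% of all genes passed, and 0 by DESeq2. At an unadjusted p under 0.05 there were 0 and 2, where 5.77% and 13.3% of all genes had one. None of the 10 T-box genes lies on chromosome 8.

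Of the 8 pluripotency genes with a peak, 2 rose and 1 fell in the Hoxa deletion, where 12.2% of all genes rose and 6.13% fell. Klf4 and Tfcp2l1 rose, with log2 fold changes of 0.60 and 0.84, and Klf2, on chromosome 8, fell with one of -0.81. Their adjusted p by edgeR were 2.31e-06, 3.80e-04 and 2.54e-05. All 3 encode transcription factors of the naive pluripotent state. In the Wnt6 and Hmx1 deletions 0 of 8 passed by edgeR, where 0.0452% and 0.0517% of all genes passed, and 0 by DESeq2. Unadjusted p-values under 0.05 numbered 3 and 2, where 5.77% and 13.3% of all genes had one. The summed level of the 8 genes was 404 to 419 CPM in the Hoxa deletion, 349 to 364 CPM in the Wnt6 deletion and 376 to 390 CPM in the Hmx1 deletion. Of the sum in the Hoxa deletion, 252 to 269 CPM came from Esrrb, which did not pass (log2 fold change 0.12, adjusted p = 0.248 by edgeR). The single genes had log2 fold changes from -0.81 to 0.84 in the Hoxa deletion. Those below 0 were Klf2 and Zfp42 (-0.55), both on chromosome 8, whose peaks had a median of -0.59. The others lay between 0.11 and 0.84. Of the 8 fibroblast genes with a peak, 0 passed in the Hoxa deletion by edgeR, with 0 at an unadjusted p under 0.05 and 0 by DESeq2. Over all genes 18.3% passed by edgeR and 29% had such an unadjusted p. The same counts were 0 in the Wnt6 and Hmx1 deletions. There 0.0452% and 0.0517% of all genes passed by edgeR, and 5.77% and 13.3% had such an unadjusted p. The part of these genes in the Tbx3 result was not tested.

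Over the 7 libraries the average profile of the 10 genes varied little, from -0.14 to 0.09 on the log2 scale around its mean. The genes outside their windows with the most similar profile were A730056A06Rik (Pearson r = 0.986), Mkx and Gm46633 (0.982 each, with the same value), Gm27197 (0.979) and Gm32798 (0.971), chosen from 3107 genes of at least the same level. These correlations are across 7 libraries, and within each library all genes share its depth and scaling. They are given as a description. Among the 10 genes themselves the correlation with this profile was highest for Eomes (0.947) and Tbx2 (0.922) and lowest for Tbx21 (0.205), and it was 0.582 for Tbx3.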

How the data were processed

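The authors deposited raw, unnormalized counts per peak in a single table, with 7 columns of H3K27me3 Cut&Tag libraries that match the titles in the labels. The submitters' processing notes name Trimmomatic, Bowtie2, SAMtools, Picard, MACS2, deepTools and the build mm10, with no role or version. How the peak list was made, whether duplicates were removed and whether reads or fragments were counted is not given in the sources used here. Peaks strong in the libraries used for calling are favoured by such a list. Peak positions are as deposited, gene positions come from RefSeq (GRCm38.p6, the same assembly), and no strand is given there, so gene ends are called lower and upper by coordinate. The 7 IgG libraries were not analysed here, and no background was subtracted.

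Counts were tested in edgeR 4.0.16 (R 4.3.3) with glmQLFit and glmQLFTest after filterByExpr by genotype and TMM scaling, each deletion against the other 2 pooled, over 74441 peaks and, after summing the peaks within 10 kb of each gene body, over 30959 genes. A call needed a change over 1 on the log2 scale in either direction and a p under 0.05 after Benjamini-Hochberg adjustment, and results with no fold minimum are given too. SEs come from the F statistic, and intervals are 95% intervals. DESeq2 1.42.0 was the alternative tool. Other alternatives were RLE factors, library totals alone, chromosome medians removed, the filter left out or set to a mean count of 20, 3 genotype terms, each other deletion alone, a replicate block, counts downsampled to 6016500, windows of 0 and 25 kb, and each library left out. The procedure was tested on simulated counts over 74458 peaks, of which 200 were changed by 1.5 on the log2 scale at a dispersion of 0.02. It recovered 93.5%, 93.5% and 94% of these peaks in the Hoxa, Wnt6 and Hmx1 designs, with 3, 6 and 5 calls among unchanged peaks.

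The 10 genes, the lists of other family members, partners, pluripotency genes and fibroblast genes, and the tests were chosen with earlier results of these data known. Named are all 10 genes, the peak at the start (both ends where no start was given) and the strongest peak of each, the genes past an adjusted p of 0.05, the gene and peak with the smallest adjusted p and the gene with the largest change in each comparison, list genes past that threshold, and the 5 genes of most similar profile. Other peaks named were chosen after their values were seen. Same-numbered libraries did not deviate together (r from -0.05 to 0.09), so the main fits have no block. The other pairs (r from -0.13 to 0.13) are no separate reference, since 2 libraries of a deletion deviate from their mean as mirror images. Figures were made with matplotlib 3.10.9 (Python 3.11.15).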

Additional observations from a re-analysis of the deposited data

How the results depend on the processing

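Of 423 values recomputed under alternatives, 383 kept their direction, their side of the threshold or, for counts, stayed within 1.5 times. The rise of Tbx3 in the Hoxa deletion passed the threshold under every alternative run, with log2 fold changes from 0.64 to 0.80. In the Hoxa deletion, library totals alone gave 2 genes past the threshold in place of 1, adding Eomes, and so did leaving out Wnt6 deletion replicate 2, adding Tbx15 (range 1 to 2). Peaks called were 4 when set against the Wnt6 deletion alone, 2 when set against the Hmx1 deletion alone, and 1 to 3 with a library left out, with 3 without Hoxa deletion replicate 2 or Hmx1 deletion replicate 2, and 2 without Hoxa deletion replicate 1 or 3 or Hmx1 deletion replicate 1. Peaks past the adjusted p were 12 after downsampling, which has fewer counts, 11 within gene bodies alone, which hold fewer peaks, and 14 to 22 with a library left out. The median over the 10 genes was -0.086 with chromosome medians removed and -0.05 to 0.02 with a library left out. The replicate block gave 2 called peaks in place of 1 in the Hoxa deletion, with 17 in place of 21 past the adjusted p and 13 in place of 12 at Tbx3, and changed the side of the threshold of none of the 10 genes, with Tbx3 at 0.76. The labels tie same-numbered libraries by nothing else, though every replicate 1 was shallower (6016500 to 9982841 counts) than every replicate 2 (25595584 to 36563541), and whether they share a preparation was not tested. In the Wnt6 deletion DESeq2 called 1 peak and passed 2, and 3 genotype terms passed 4 peaks and 1 gene. Against the Hoxa deletion alone 4 peaks were called, 15 passed and 1 gene passed. Leaving out Hmx1 deletion replicate 2 called 1 peak and passed 2, with ranges of 0 to 1 and 0 to 2. The median over the 10 genes was -0.14 without Wnt6 deletion replicate 1 and 0.033 without replicate 2. In the Hmx1 deletion 3 genotype terms passed 1 gene, and against the Hoxa deletion alone 2 peaks were called, 14 passed and 1 gene passed. With 3 genotype terms the gene was Tbx3 in both, at -0.48 and -0.24 (edgeR, adjusted p of 3.00e-07 and 0.0131), against averages that include the Hoxa deletion. Tbx3 reversed in the Hmx1 deletion, to 0.16 against the Wnt6 deletion alone from -0.37 against both, since the Wnt6 deletion was lowest. Where not stated, the cause was not tested. Counts went down to 8 in the weakest peaks, and how small a change could be detected there was not tested.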
